A study of Mus musculus with 12 samples.

Results

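The Meis, Pbx and Pknox genes encode homeodomain transcription factors of the TALE class, and 8 of them were followed through the differentiation of mouse embryoid bodies with and without the histone acetyltransferase Gcn5. They were the rows of the deposited table whose Ensembl gene ID, without its version, belongs to Meis1, Meis2, Meis3, Pbx2, Pbx3, Pbx4, Pknox1 or Pknox2, 8 of the 18269 genes listed. The rule itself has no threshold, but the family was chosen by earlier results of these data, among them the normalised reads of Meis2 in null and floxed samples at day 3, and the table lists only genes that reached 10 reads in 1 or more libraries. The day 3 difference of Meis2 and its changes with time are therefore descriptions, and the tests of the family are no independent evidence that it stands out.

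Embryoid bodies are aggregates of differentiating embryonic stem (ES) cells, here of C57BL/6 origin. RNA came from Gcn5-/- (null) ES cells of the line 4C2 and from Gcn5fx/fx (floxed) ES cells of the line 4_1, in which both copies of the gene for Gcn5, Kat2a, carry recombination sites. Each line was sampled at day 5 and day 3 of differentiation, the 4 groups having 3 samples apiece, and the comparison asks what loss of Gcn5 changes early in differentiation. The series' design text, however, speaks of duplicates, and which of its samples that means was not resolved, so n = 3 rests on the labels. With 1 line per genotype, line and genotype cannot be told apart, and nothing in the labels says that samples came from separate cultures, so p-values measure the spread between samples of 1 line, which may be technical.

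Recovered reads per library numbered 18865848 to 24416832 in null day 5, 26160220 to 29446068 in floxed day 5, 18022071 to 26803369 in null day 3 and 23090915 to 26413938 in floxed day 3. Kat2a had 739, 852 and 860.2 normalised reads in null and 2161, 2391 and 2071 in floxed day 5 libraries, and 649, 614 and 840.5 in null and 2077, 2226 and 2379.8 in floxed day 3 libraries. It fell in null samples at day 5 (-1.43 ± 0.11 on the log2 scale, adjusted p = 1.6e-05) and at day 3 (-1.68 ± 0.11, adjusted p = 1.01e-05), and the table does not show which exons the remaining reads came from. Of the 9 pluripotency genes listed as markers, 6 changed with time in the null line (2 higher and 4 lower at day 5), with Pou5f1, Nanog and Dnmt3b among those that fell, and 8 in the floxed line (4 higher and 4 lower). All 9 markers of extraembryonic endoderm rose with time in both lines, as did 10 of 13 neural ectoderm markers in the null line and 11 of 13 in the floxed line. Among all genes tested, 22.6% rose and 21.9% fell with time in the null line, and 22.5% rose and 19.2% fell in the floxed line. RNA of whole aggregates does not separate a change in the share of a cell type from a change in RNA per cell.

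TALE homeodomain proteins have an extra loop between the first helices of the homeodomain. Pbx proteins bind DNA as partners of Hox proteins, Meis and Pknox (Prep) proteins bind Pbx and help bring it into the nucleus, and trimers of a Hox, a Pbx and a Meis or Pknox protein act on target genes of the hindbrain and trunk. Meis1 and Meis2 are known as genes induced by retinoic acid, and in the early embryo Meis genes mark differentiating neural and mesodermal tissue, while Pbx and Pknox1 genes are expressed broadly.

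Values are normalised reads, the deposited read counts per gene divided by 1 size factor per sample. Log2 changes are on the log2(value + 1) scale with their standard error from limma, and a gene was called changed when its p, adjusted with the Benjamini-Hochberg method over the 17000 genes tested, was under 0.05. All 8 genes passed the filter on low values. Only values per length are comparable between genes, so levels of different genes are given per kb of merged exon length.

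Pbx2 had the highest level per kb in every group, at 487 ± 32.7 normalised reads per kb in null day 5, 587 ± 71.1 in floxed day 5, 573 ± 48.1 in null day 3 and 596 ± 90.3 in floxed day 3 (SD, n = 3). Its range lay apart from that of the next gene in all 4 groups. Meis1 had the lowest level at day 3, with 3.65 ± 3.61 in null and 9.84 ± 13.1 in floxed samples, and its range overlapped that of Pknox2 in floxed but not in null samples. At day 5 the lowest level was that of Pbx4, at 43.6 ± 10.97 in null and 44.6 ± 11.8 in floxed samples. Meis2 came second in 3 of the groups, at 128 ± 29.2 in null day 5, 239 ± 34.1 in floxed day 5 and 103 ± 78.0 in floxed day 3, but sixth in null day 3 with 23.9 ± 12.6. In floxed day 5 samples the 3 Meis genes and Pbx3 followed Pbx2 with ranges that overlapped from each gene to the next. Measured by the longest transcript instead of the merged exons, Pbx2 kept the first place in all 4 groups, while Meis1 in floxed day 5 moved to the sixth place and Meis3 in null day 5 to the fifth. Pknox2 in null day 5 moved from rank 7 to rank 4, above Pknox1.

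**Figure D1:**
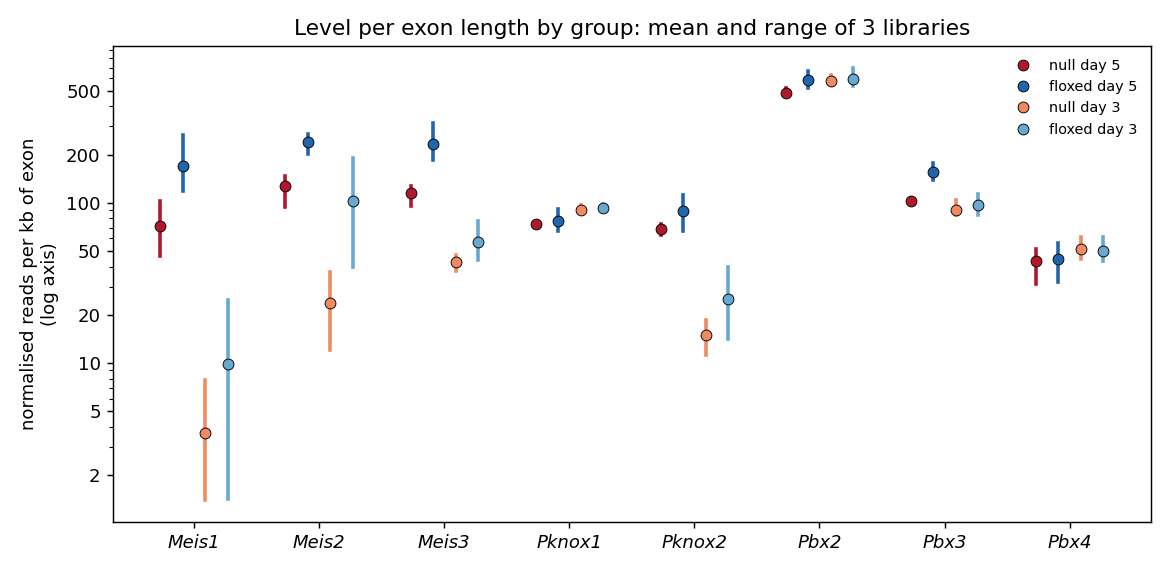
Normalised reads per kb of merged exon length (log axis) for each gene, in null day 5, floxed day 5, null day 3 and floxed day 3 embryoid bodies. Points are means and vertical lines the range of 3 libraries; Pbx2 lies above the other genes in every group, and Meis1 spans the widest distance between days.

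The Meis genes were compared first. Meis1 (ENSMUSG00000020160.18) spans chromosome 11 from 18879817 to 19018985 on the minus strand of mm10, Meis2 (ENSMUSG00000027210.20) chromosome 2 from 115863064 to 116065839 on the minus strand, and Meis3 (ENSMUSG00000041420.18) chromosome 7 from 16175090 to 16186504 on the plus strand. Because the 3 genes rose together with time, bases upstream of their RefSeq transcription starts (GRCm38.p6) are given, 5′ to 3′ on the gene's strand, limited to the stretch outside annotated exons, with CpG dinucleotides in capitals. The Meis1 stretch (chr11:19018986-19019219, minus strand) begins 250 bases before the start and holds 12 CpGs, that of Meis2 (chr2:116064722-116064801, minus strand) lies between annotated exons and holds 0, and that of Meis3 (chr7:16175185-16175274, plus strand) also lies inside the annotated gene and holds 1.
Meis1: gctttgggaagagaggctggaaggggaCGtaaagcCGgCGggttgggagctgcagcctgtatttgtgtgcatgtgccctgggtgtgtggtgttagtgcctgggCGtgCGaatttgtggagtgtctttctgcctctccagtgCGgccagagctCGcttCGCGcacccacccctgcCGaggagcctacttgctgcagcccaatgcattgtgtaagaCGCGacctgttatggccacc
Meis2: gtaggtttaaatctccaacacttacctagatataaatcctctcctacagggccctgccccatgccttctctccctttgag
Meis3: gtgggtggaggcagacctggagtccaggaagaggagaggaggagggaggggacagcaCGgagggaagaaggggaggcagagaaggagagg

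RefSeq windows were at hand for 5 of the 8 genes (the Meis genes, Pbx2 and Pbx4). Over the 250 bases before the start, the CpG ratio, observed over expected, was 0.595 for Meis1, 0.497 for Meis2, 0.55 for Meis3, 0.903 for Pbx2 and 0.709 for Pbx4, against a median of 0.373 over 32817 windows. The GC content was 59.6%, 47.6%, 63.6%, 77.6% and 55.6% in the same order, against a median of 52.4%. Both strands were searched for 5 motifs: TGACAG, the core bound by Meis and Pknox proteins, which 15.9% of all windows hold; TGATTGAC, a Pbx and Meis composite (0.692%); TGATTNAT, a Pbx and Hox composite (2.83%); CACGTG, the E-box bound by Myc (6.02%); and AGGTCA, any 5 bases and again AGGTCA, a direct repeat bound by retinoic acid receptors (0.00914%). The letters TGAC end the second motif and begin the first, so that matches of both can overlap. No window of the 5 genes held any of these letters, which says only that they are not in these windows.

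Meis1 had 492, 686 and 1087 normalised reads in null day 5 libraries, against 1300.1, 1249 and 2809 in floxed day 5 libraries. At day 3 it had 18.3, 14.7 and 82.3 in null and 33.9, 15.0 and 262 in floxed libraries, the values standing in replicate order in each group. Every null library lay below every floxed library at day 5, while the groups overlapped at day 3. The log2 change was -1.21 ± 0.84 at day 5 (adjusted p = 0.316) and -0.85 ± 0.84 at day 3 (adjusted p = 0.603), so neither passed the test. With only the day 5 groups in the fit the same difference passed (adjusted p = 0.0435), as it did without the 4 libraries numbered 3 (-1.13, adjusted p = 0.0429). Without floxed day 3 replicate 3 the day 3 difference turned positive (0.31).

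Meis1 lies on chromosome 11, whose expressed genes stood higher as a whole in null samples, with a median log2 change of 0.33 at day 5 and 0.36 at day 3 over 1332 genes, against -0.04 and -0.02 over the genes of the other autosomes. The nearest tested protein-coding genes were Etaa1 and Spred2, with 0.33 ± 0.07 (adjusted p = 0.00618) and 0.01 ± 0.13 (adjusted p = 0.953) at day 5, and 0.35 ± 0.07 (adjusted p = 0.0142) and 0.39 ± 0.13 (adjusted p = 0.0931) at day 3. With chromosome 11 centred on its own median in each sample, the Meis1 difference was -1.54 at day 5 and -1.20 at day 3. Transcripts annotated on the same strand inside Meis1 were counted apart from it, and 1 of them, Gm37818, shares 1029 exon bases with it, so reads of those bases may be missing from Meis1 or divided between both. All 3 such transcripts had few reads, with 2610001A08Rik at 5.65, 6.99 and 10.7 in null and 11.1, 16.8 and 31.4 in floxed day 5 libraries.

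Meis2 had 1139, 1723 and 1770.3 normalised reads in null and 2428, 2964 and 3234 in floxed day 5 libraries. At day 3 it had 273, 145 and 446 in null and 942, 479 and 2287 in floxed libraries. At both days all null libraries lay below all floxed libraries, although the lowest floxed and the highest null value of day 3 were close. The day 3 values of Meis2 were among those by which the family was chosen, so its day 3 results below are a description and no independent evidence. Meis2 fell at day 3 (-1.95 ± 0.47, adjusted p = 0.0279) and was the only 1 of the 8 genes called there, where 6.12% of all genes tested were called, 2.03% lower and 4.09% higher. These were 345 genes lower and 696 higher, or 248 lower and 226 higher with chromosome 11 centred on its median, where Meis2 stayed called. It was also the only 1 whose null and floxed libraries did not overlap at day 3, against 13.1% of all genes lower and 14.8% higher without overlap. At day 5 its log2 change was -0.91 ± 0.47 (adjusted p = 0.169), which did not pass, although it did when only the day 5 groups were fitted (adjusted p = 0.0103). The nearest tested protein-coding genes beside Meis2 were Spred1 and BC052040. At day 5 they stood at -0.46 ± 0.11 (adjusted p = 0.00783) and 0.47 ± 0.18 (adjusted p = 0.0767). At day 3 they stood at -0.11 ± 0.11 (adjusted p = 0.585) and 0.39 ± 0.18 (adjusted p = 0.229).

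The day 3 call of Meis2 was lost without any 1 of 4 libraries, while its direction stayed. Its log2 change was -1.99 without null day 3 replicate 1 (adjusted p = 0.0647) and -1.53 without null day 3 replicate 2 (adjusted p = 0.0910). It was -2.01 without floxed day 3 replicate 1 (adjusted p = 0.0777) and -1.37 without floxed day 3 replicate 3 (adjusted p = 0.0665). With only the day 3 groups in the fit it was again -1.95 (adjusted p = 0.0688). Taking null against floxed samples of the same replicate number, the log2 ratio at day 3 was -1.79, -1.72 and -2.36 in replicates 1 to 3, lower in 3 of 3 pairs. At day 5 it was -1.09, -0.78 and -0.87. With the replicate number as a block the day 3 difference passed (adjusted p = 0.00426) and the day 5 difference did not (0.0572). Without the 4 libraries numbered 3 it was -1.75 at day 3 (adjusted p = 0.0309). All these day 3 fits reuse the values by which the family was chosen and add no independent support.

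Meis3, the member of the family linked to hindbrain patterning in Xenopus, had 303, 405 and 384 normalised reads in null and 589.6, 641 and 999 in floxed day 5 libraries. At day 3 it had 119.8, 135 and 150.2 in null and 139, 156 and 246 in floxed libraries. The groups did not overlap at day 5 and overlapped at day 3. Meis3 fell at day 5 (-0.998 ± 0.229, adjusted p = 0.00756), and at day 3 its log2 change was -0.37 ± 0.23 (adjusted p = 0.364). Leaving out any 1 of the 12 libraries kept the day 5 call, with adjusted p from 0.00307 to 0.0321. The nearest tested protein-coding genes, Dhx34 and Slc8a2, stood at 0.14 ± 0.11 (adjusted p = 0.347) and 0.14 ± 0.14 (adjusted p = 0.493) at day 5.

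**Figure D2:**
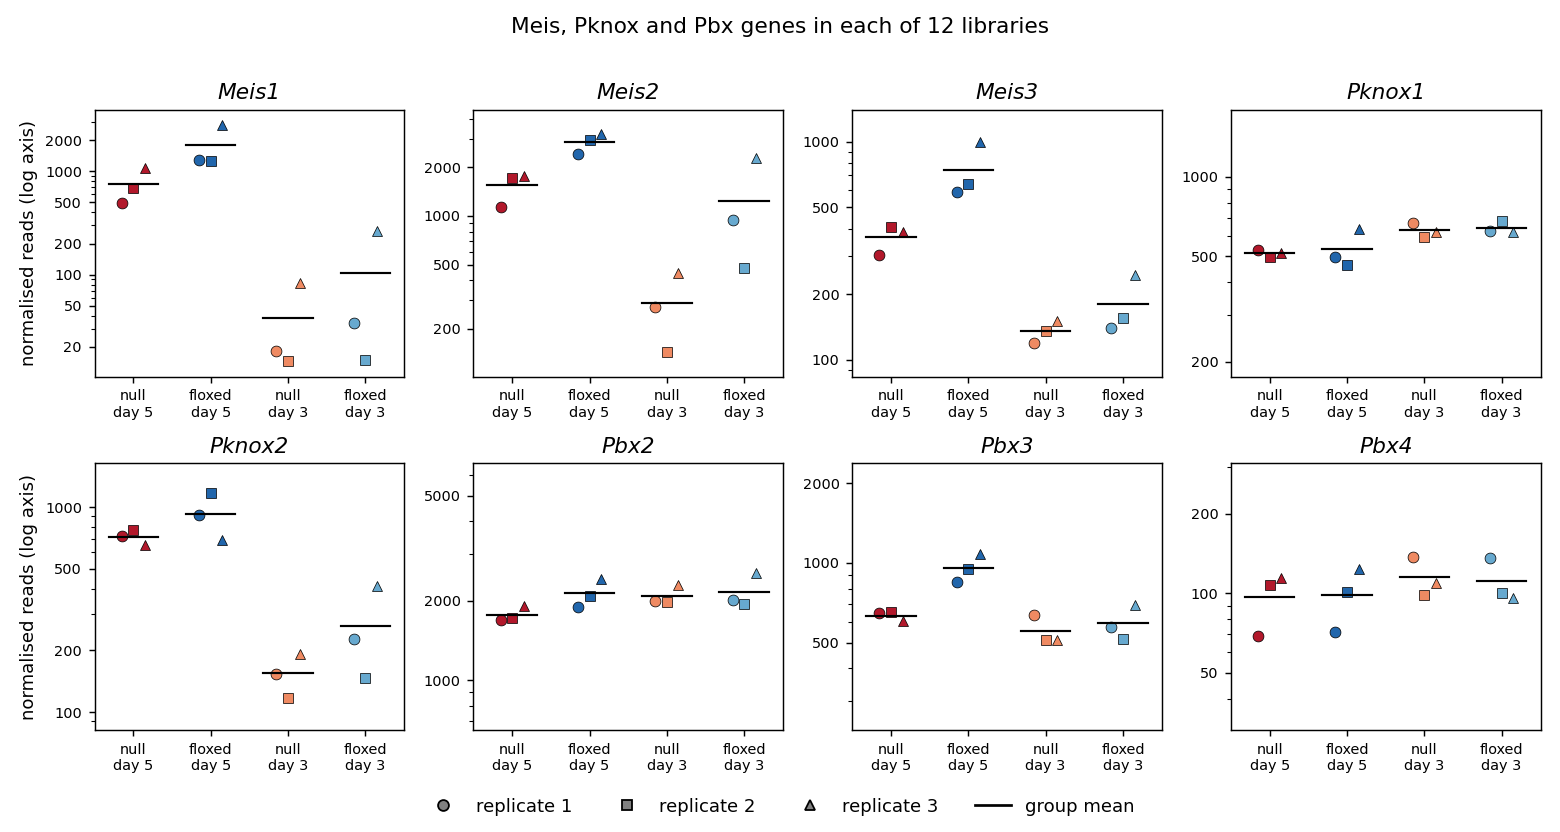
Normalised reads (log axis) of the 8 genes in each of the 12 libraries; columns are null day 5, floxed day 5, null day 3 and floxed day 3, marker shapes are replicate numbers and bars are group means of 3. Null libraries lie below floxed libraries at day 5 for Meis1, Meis2, Meis3 and Pbx3, and the replicate 3 triangles stand highest in all 4 groups for Meis1, Meis2 and Pbx2.

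The Pbx genes encode the partners of Hox proteins. Pbx3 (ENSMUSG00000038718.15, chromosome 2, 34171457 to 34373142, minus strand) had 645, 651 and 601 normalised reads in null and 846, 948 and 1085 in floxed day 5 libraries. At day 3 it had 637, 511 and 512 in null and 571, 514 and 695 in floxed libraries. All null libraries lay below all floxed libraries at day 5, and the groups overlapped at day 3. Pbx3 fell at day 5 (-0.59 ± 0.13, adjusted p = 0.00589) and stood at -0.10 ± 0.13 at day 3 (adjusted p = 0.718). The day 5 call held without any 1 library, with adjusted p from 0.00343 to 0.0261. The nearest tested protein-coding genes were Mvb12b and Mapkap1. At day 5 they stood at -0.46 ± 0.10 (adjusted p = 0.00613) and -0.08 ± 0.08 (adjusted p = 0.485). At day 3 they stood at -0.36 ± 0.10 (adjusted p = 0.0519) and -0.07 ± 0.08 (adjusted p = 0.645).

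Pbx2 (ENSMUSG00000034673.14, chromosome 17, 34591266 to 34597400, plus strand), the most abundant of the genes, had 1687, 1721 and 1908 normalised reads in null and 1904, 2086 and 2415 in floxed day 5 libraries. The groups overlapped by 1 library on each side. Its log2 change was -0.26 ± 0.11 at day 5 (adjusted p = 0.104) and -0.05 ± 0.11 at day 3 (adjusted p = 0.846). With the replicate block the day 5 difference passed (adjusted p = 0.00971), with log2 ratios of -0.17, -0.28 and -0.34 in the 3 pairs. Its neighbour Gpsm3, on the same strand, shares 227 exon bases with it and had at most 59.7 reads in any library.

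Pbx4 (ENSMUSG00000031860.17, chromosome 8, 69832491 to 69872292, plus strand) had 68.9 to 114 normalised reads in null and 71.6 to 124 in floxed libraries at day 5, and 99.1 to 136.9 in null and 96.1 to 136 in floxed libraries at day 3. The groups covered nearly the same range at each day. Its log2 change was -0.03 ± 0.25 at day 5 (adjusted p = 0.943) and 0.05 ± 0.25 at day 3 (adjusted p = 0.929), and its sign turned with upper-quartile scaling at day 5 (0.01).

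The Pknox genes encode the Prep proteins, which bind Pbx as Meis proteins do. Pknox1 (ENSMUSG00000006705.12, chromosome 17, 31564734 to 31607693, plus strand) ranged from 499 to 527 normalised reads in null and from 463 to 635 in floxed libraries at day 5, and from 594 to 671 in null and from 618 to 679.9 in floxed libraries at day 3. The null libraries lay within the floxed range at day 5. Its log2 change was -0.04 ± 0.11 at day 5 (adjusted p = 0.841), or 0.01 with upper-quartile scaling, and -0.03 ± 0.11 at day 3 (adjusted p = 0.913). Pknox2 (ENSMUSG00000035934.15, chromosome 9, 36890982 to 37147407, minus strand) had 725, 769 and 653 in null and 916, 1166 and 689 in floxed day 5 libraries. At day 3 it had 154, 116 and 192 in null and 227, 146 and 413 in floxed libraries. The groups overlapped at both days, with log2 changes of -0.34 ± 0.31 at day 5 (adjusted p = 0.453) and -0.66 ± 0.31 at day 3 (adjusted p = 0.224).

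**Figure D3:**
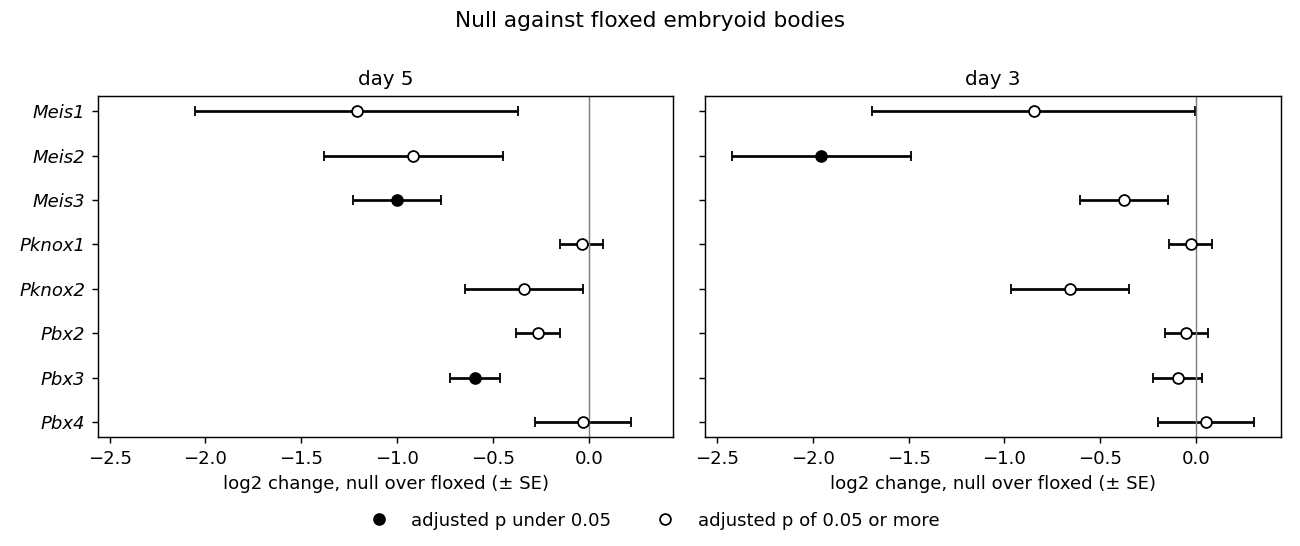
Log2 change of null over floxed embryoid bodies (± SE, limma, n = 3 per group) at day 5 and day 3; filled points have an adjusted p under 0.05. The points of Meis3 and Pbx3 are filled at day 5 and that of Meis2 at day 3, all below 0. The day 3 values of Meis2 were among those by which the family was chosen.

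In all, 2 of the 8 genes fell and 0 rose at day 5, where 26.5% of all genes tested were called, 13.5% lower and 13.0% higher. The null libraries of 4 of the 8 genes lay wholly below the floxed libraries at day 5, against 22.2% of all genes lower and 19.8% higher without overlap. With limma the day 5 count at an unadjusted p under 0.05 was 3, and edgeR and DESeq2 each called 2 at day 5 and 1 at day 3. The shares above are not those of these counts. Over the other scalings, filters, pseudocounts, tools and fits, 3829 to 5638 of all genes were called at day 5. At day 3 these settings called 388 to 1866. The share at an unadjusted p is not given. The median log2 change of the 8 genes was -0.47 at day 5 and -0.24 at day 3, beside -0.02 and 0.00 over all genes tested.

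Both lines were then compared between days to ask which of the genes follow differentiation. Meis1 rose at day 5 by 4.61 ± 0.84 in the null line (adjusted p = 0.000768) and by 4.97 ± 0.84 in the floxed line (adjusted p = 0.000467). Its averages were 755 ± 303 normalised reads at day 5 and 38.4 ± 38.0 at day 3 in null, and 1786 ± 887 at day 5 and 104 ± 138 at day 3 in floxed samples (SD, n = 3 each), with no overlap between days in either line. Meis2 rose by 2.54 ± 0.47 in the null line (adjusted p = 0.000822) and by 1.497 ± 0.469 in the floxed line (adjusted p = 0.0210). Both changes start from day 3 values by which the family was chosen, so they are a description and no independent evidence.

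The floxed call of Meis2 was lost with DESeq2 (1.22, adjusted p = 0.0692) and without single libraries, while its direction stayed. The log2 change was 1.47 without floxed day 5 replicate 2 (adjusted p = 0.0529) and 1.41 without floxed day 5 replicate 3 (adjusted p = 0.0556). It was 1.45 without floxed day 3 replicate 1 (adjusted p = 0.0625) and 0.96 without floxed day 3 replicate 2 (adjusted p = 0.0983). In the null line it was called without any 1 library, with adjusted p from 0.00011 to 0.00489. All these fits reuse day 3 values by which the family was chosen and add no independent support.

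Meis3 rose by 1.42 ± 0.23 in the null line (adjusted p = 0.00033) and by 2.04 ± 0.23 in the floxed line (adjusted p = 2.31e-05). Pknox2 rose by 2.23 ± 0.31 in the null line (adjusted p = 0.000101) and by 1.91 ± 0.31 in the floxed line (adjusted p = 0.000313). Both genes had no overlap between days in either line. Pbx3 rose in the floxed line (0.70 ± 0.13, adjusted p = 0.000923), where days did not overlap, and stood at 0.20 ± 0.13 in the null line (adjusted p = 0.232), where they did.

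The other 3 genes did not pass. Pknox1 stood at -0.29 ± 0.11 in the null line (adjusted p = 0.0520) and at -0.28 ± 0.11 in the floxed line (adjusted p = 0.0617). In the null line it had averages of 514 ± 14.2 at day 5 and 628 ± 39.0 at day 3, with no overlap between days. The null change passed with the replicate block (adjusted p = 0.0456) and with DESeq2 (adjusted p = 0.0491). It also passed with only the groups compared (adjusted p = 0.0415) and with a filter at a mean of 50 (adjusted p = 0.0470). The floxed change passed with upper-quartile scaling (-0.31, adjusted p = 0.0382). Leaving out floxed day 5 replicate 2 or 3 also brought the null change past the threshold (adjusted p = 0.0397 and 0.0177), and leaving out the second of these the floxed change (-0.41, adjusted p = 0.00577). Pbx2 stood at -0.23 ± 0.11 in the null line (adjusted p = 0.111), lower at day 5 in 3 of 3 pairs and called with the block (adjusted p = 0.0107), and at -0.02 ± 0.11 in the floxed line (adjusted p = 0.905). Pbx4 stood at -0.27 ± 0.25 (adjusted p = 0.413) and -0.18 ± 0.25 (adjusted p = 0.595).

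Thus 4 of the 8 genes rose and 0 fell in the null line, where 44.5% of all genes tested were called, 22.6% higher and 21.9% lower. In the floxed line 5 rose and 0 fell, where 41.7% were called, 22.5% higher and 19.2% lower. Days did not overlap for 6 of the 8 genes in the null line, 4 higher and 2 lower at day 5, against 27.4% of all genes higher and 26.3% lower without overlap. In the floxed line they did not overlap for 5 genes, all higher, against 27.4% higher and 25.9% lower. At an unadjusted p under 0.05, limma gave 5 genes in the null and 6 in the floxed line, edgeR called 4 and 5, and DESeq2 5 and 4. The shares above are not those of these counts. Over the other scalings, filters, pseudocounts, tools and fits, 6707 to 8440 of all genes were called in the null line. In the floxed line these settings called 6196 to 7952. The share at an unadjusted p is not given. The genotype by day interaction, which tests whether the change with time differed between the lines, called 0 of the 8 genes with limma, edgeR and DESeq2, against 0.476% of all genes, 0.229% lower and 0.247% higher. With limma, 1 gene was under 0.05 before adjustment, Pbx3 (-0.50 ± 0.18, adjusted p = 0.242), so a difference between the lines in the rise of Pbx3 was not shown. The interaction of Meis2 was 1.04 ± 0.66 (adjusted p = 0.521) and that of Meis3 -0.62 ± 0.32 (adjusted p = 0.413). The day 3 values of Meis2 by which the family was chosen enter its interaction and its place in the counts above.

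**Figure D4:**
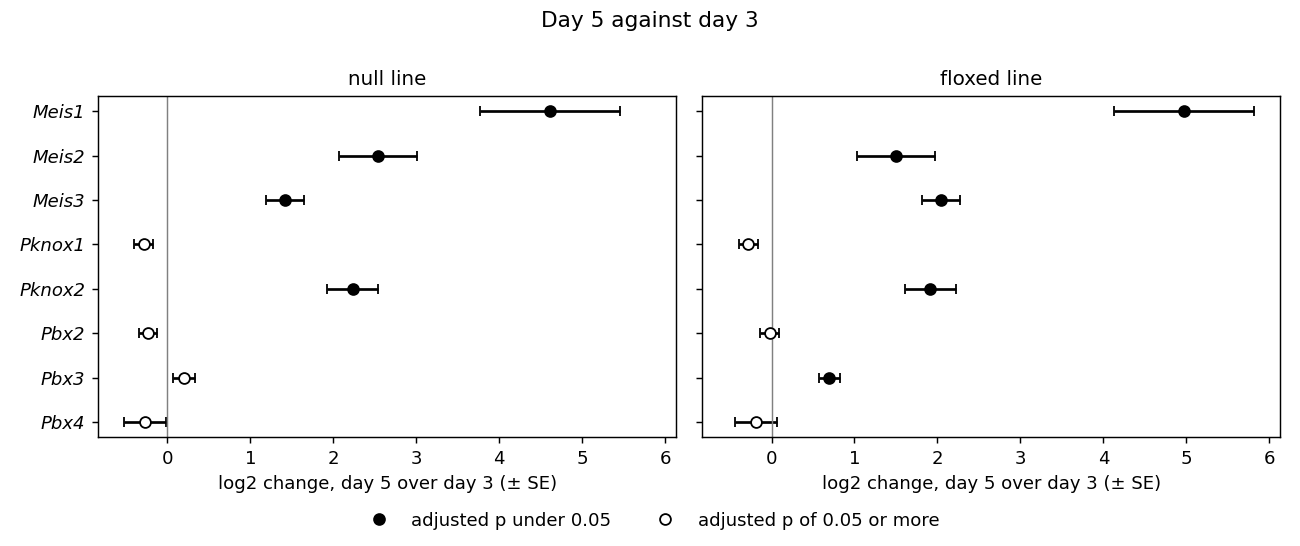
Log2 change of day 5 over day 3 (± SE, limma, n = 3 per group) in the null and in the floxed line; filled points have an adjusted p under 0.05. Meis1, Meis2, Meis3 and Pknox2 are filled above 0 in both lines, and Pbx3 in the floxed line. The changes of Meis2 start from day 3 values that were among those by which the family was chosen.

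Shares of the Meis and Pknox families per kb of exon differed between days, as a description with no test. Their size depends on the length used. Per kb of the longest transcript, null day 5 samples had 197 ± 16.0 for Pknox2 and 121 ± 3.33 for Pknox1. Per kb of merged exons they had 69.2 ± 5.64 and 74.1 ± 2.04. Meis1 made up 22.3% ± 4.76 of the summed Meis level in null day 5 and 25.5% ± 5.35 in floxed day 5 samples, against 4.59% ± 3.36 in null day 3 and 4.22% ± 3.75 in floxed day 3 samples (SD, n = 3), with no overlap between days. The share of Meis2 at day 3 was 32.7% ± 9.92 in null and 57.2% ± 11.4 in floxed samples, again with no overlap. That share uses day 3 values by which the family was chosen, so its separation is no independent evidence. At day 5 the share of Meis2 was 40.7% ± 1.63 in null and 38.2% ± 6.02 in floxed samples, with overlap. All shares and overlaps here are per kb of merged exons. Pknox2 made up 48.3% ± 2.47 of the summed Pknox level in null and 53.4% ± 10.5 in floxed samples at day 5, against 14.1% ± 2.87 in null and 21.0% ± 9.27 in floxed samples at day 3. Pbx2 held 76.8% ± 1.29 of the summed level of Pbx2, Pbx3 and Pbx4 in null and 74.5% ± 0.80 in floxed samples at day 5, and 80.1% ± 2.95 in null and 80.1% ± 1.77 in floxed samples at day 3, and its range overlapped between days in the null but not in the floxed line. Pbx3 held 16.4% ± 1.59 in null and 19.9% ± 0.12 in floxed samples at day 5, against 12.7% ± 1.79 and 13.0% ± 0.31 in null and floxed samples at day 3.

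Libraries numbered 3 stood high for several of these genes. Replicate 3 had the highest value of its group in 4 of 4 groups for Meis1, Meis2 and Pbx2 and in 3 of 4 for Meis3. As a description over the 12 libraries, which share groups and normalisation, deviations from the group means correlated at r = 0.93 between Meis1 and Meis2, 0.92 between Meis1 and Pbx2 and 0.78 between Meis1 and Meis3, and at 0.02 between Meis1 and Pknox1. The summed Hox genes moved with the same libraries, with 819.9 in null day 3 replicate 3 against 514 and 289 in the other null day 3 libraries, and 2013 in floxed day 3 replicate 3 against 858 and 465. The summed pluripotency markers were at 32298 in null day 3 replicate 3, against 41578 and 42458, and at 36790.3 in floxed day 3 replicate 3, against 47995 and 49531. At day 5 they were not lowest in replicate 3, with 12736 in null day 5 replicate 3 against 15950.3 and 12114, and 23390.4 in floxed day 5 replicate 3 against 23342 and 17300. The part of these differences between libraries in the Meis values was not tested.

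Over the 12 libraries, as a description, the genes whose log2 values ran most like those of Meis2 were Sox1 (r = 0.97), a transcription factor gene of early neural ectoderm, Amer1 (0.97) and Sall2 (0.97). For Meis3 they were Zfp41 (0.99), Pea15a (0.99) and Nedd9 (0.99), and for Pbx3 Cep41 (0.97), Fgf15 (0.97) and Slc4a4 (0.97). The libraries share days, lines and normalisation.

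Other genes of the pathway came from lists of Hox genes, other TALE genes, other Pbx partners and genes of retinoic acid response. Between genotypes, 26.5% of all genes tested were called at day 5, 13.5% lower and 13.0% higher. At day 3 the share was 6.12%, 2.03% lower and 4.09% higher. Counts near these shares are not particular to a list. Of 39 Hox genes, 21 were listed and 18 tested, and 0 passed the genotype test at either day with limma, with medians of -1.21 at day 5 and -0.94 at day 3. At an unadjusted p under 0.05 there were 4 at each day, edgeR and DESeq2 each called 2 at day 5 and 0 at day 3, and the replicate block called 9 at day 5 and 2 at day 3. These counts cannot be set against the shares above, which are of the main fit at an adjusted p. Of all 17000 genes, the block called 1866 and DESeq2 1703 at day 3. At day 5 the other scalings, filters, pseudocounts, tools and fits called 3829 to 5638 genes. The share at an unadjusted p is not given. With time, 2 Hox genes rose and 4 fell in the null line, and 4 rose and 3 fell in the floxed line. Among all genes tested, 44.5% were called with time in the null line and 41.7% in the floxed line. Hoxa2, a hindbrain Hox gene, rose by 3.29 ± 0.73 in null (adjusted p = 0.00267) and 3.13 ± 0.73 in floxed samples (adjusted p = 0.00390).

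Of 9 other TALE genes (Irx, Tgif and Mkx), 8 were tested, and 4 fell and 0 rose at day 5 (median -0.59) and 1 fell at day 3 (median -0.29). Among all genes tested, 13.5% were called lower at day 5 and 2.03% at day 3. Tgif2, a repressor in TGF-beta signalling, had 1221 ± 32.6 normalised reads in null and 1836 ± 162 in floxed day 5 samples (-0.58 ± 0.09, adjusted p = 0.000785). Irx2 had 297 ± 107 in null and 783 ± 296 in floxed day 5 samples (-1.38 ± 0.32, adjusted p = 0.00796), and Irx5 fell as well (-1.21 ± 0.30, adjusted p = 0.0111). Tgif1 fell at day 3 (-0.30 ± 0.07, adjusted p = 0.0162). With time 3 of these genes rose and 2 fell in the null line, and 4 rose and 2 fell in the floxed line. Among all genes tested, 44.5% were called in the null and 41.7% in the floxed line. Irx1 rose in both lines, by 2.85 ± 0.45 in null and 3.30 ± 0.45 in floxed samples. Mkx fell in both (-0.93 ± 0.23 in null and -1.19 ± 0.23 in floxed samples), and Tgif2 fell in the null line (-0.61 ± 0.09).

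Among 9 other Pbx-binding proteins, 7 were tested, beside 13.5% of all genes tested called lower and 13.0% called higher at day 5. At day 5, En2 (-2.76 ± 0.55, adjusted p = 0.00371), the homeobox gene of the midbrain and hindbrain, and Cdx1 (-1.86 ± 0.58, adjusted p = 0.0322), a caudal-type gene, fell and 0 rose (median -1.38). En2 had 15.0 ± 0.26 normalised reads in null and 154 ± 161 in floxed day 5 samples, a wide spread. Cdx1 had few reads, 2.78 ± 2.83 in null and 10.4 ± 5.55 in floxed day 5 samples. With time 2 of these genes rose and 2 fell in the null line, and 4 rose and 0 fell in the floxed line. Among all genes tested, 44.5% were called in the null and 41.7% in the floxed line. Pbxip1, the gene for a protein that binds Pbx and keeps it from DNA, rose with time in both lines (1.28 ± 0.10 in null and 0.76 ± 0.10 in floxed samples). Cdx1 fell in the null line (-2.83 ± 0.58, adjusted p = 0.00172) and stood at 0.05 ± 0.58 in the floxed line.

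Of 16 genes of retinoic acid response and metabolism, 4 fell and 1 rose at day 5 (median -0.23). Among all genes tested, 26.5% were called there, 13.5% lower and 13.0% higher. Rarb, a retinoic acid receptor gene induced by its ligand, had 53.4 ± 14.2 normalised reads in null and 134 ± 28.0 in floxed samples (-1.32 ± 0.30, adjusted p = 0.00676). Cyp26b1, for an enzyme that degrades retinoic acid, had 358 ± 37.7 in null and 1217 ± 348 in floxed samples (-1.72 ± 0.30, adjusted p = 0.00169). Stra8, a retinoic acid target of germ cells, rose, with 377 ± 25.5 in null and 87.6 ± 30.0 in floxed samples (2.16 ± 0.32, adjusted p = 0.000696). At day 3, 0 of the 16 passed with limma and edgeR and 1 with DESeq2, and 4 had an unadjusted p under 0.05. Of all 17000 genes tested, limma called 6.12% and DESeq2 called 1703 genes at day 3. The share at an unadjusted p is not given.

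Markers of cell types that embryoid bodies can hold were set beside these results. Among all genes tested, 13.5% were called lower and 13.0% higher at day 5, and 2.03% lower and 4.09% higher at day 3. Sums of normalised reads follow the genes with the most reads. The 9 pluripotency markers summed to 12114 to 15950.3 normalised reads in null and 17300 to 23390.4 in floxed libraries at day 5, with no overlap, and 6 of the 9 fell and 0 rose, among them Sox2 (-0.76 ± 0.07, adjusted p = 7.67e-05). At day 3 their sums were 32298 to 42458 in null and 36790.3 to 49531 in floxed libraries, which overlapped, and 2 of the 9 fell. At day 5 the 13 neural ectoderm markers summed to 8235 to 11286 normalised reads in null and 12625 to 27059 in floxed libraries, and 3 of the 13 fell, namely Zic1 (-3.30 ± 0.50, adjusted p = 0.000756), Fabp7 (-1.89 ± 0.48, adjusted p = 0.0126) and Pou3f3 (-2.43 ± 0.80, adjusted p = 0.0385). At day 3 their sums were 4508 to 6002 in null and 5074 to 6105 in floxed libraries. Of 12 markers of feeder fibroblasts, cells on which ES cells are often grown and which express Meis and Pbx genes, 9 were tested, with sums of 1333 to 3143 in null and 1378 to 3304 in floxed libraries at day 5, and 435 to 490.0 in null and 421 to 511 in floxed libraries at day 3. Of these, Twist1 (-1.13 ± 0.24, adjusted p = 0.00517) and Fbln2 (-0.98 ± 0.29, adjusted p = 0.0235) fell at day 5, 0 rose and 7 were not called (median -0.32). Col1a1 stood higher without passing (1.10 ± 0.44, adjusted p = 0.0824). Col1a2, with most of the summed reads (1647 ± 779 in null and 1617 ± 811 in floxed samples), stood at 0.03 ± 0.38 (adjusted p = 0.958). The 9 extraembryonic endoderm markers summed to 9324 to 12881 in null and 5288 to 13113 in floxed libraries at day 5. Most of these reads were of Lama1 (8573 ± 1510 in null and 6465 ± 2423 in floxed samples). Of the 9 markers, 1 fell, Foxa2 (-1.38 ± 0.29, adjusted p = 0.00476), and 0 rose, with a median of 0.03. The 9 endothelial and blood markers summed to 451 to 808 in null and 464 to 850.3 in floxed libraries at day 5. At day 3 the endothelial and blood markers summed to 709.6 to 886 in null and 452 to 638 in floxed libraries, so that null lay above floxed. Pecam1 (478 ± 45.4 in null and 320 ± 86.6 in floxed samples) and Lmo2 (219 ± 37.1 and 136 ± 42.5) made up most of these sums. Kdr (4.13 ± 2.97 and 5.83 ± 2.68) and Cdh5 (1.90 ± 0.73 and 1.57 ± 1.86) had few reads, and Kdr went the other way. In this list 0 of the 8 tested passed with limma, edgeR or DESeq2, 1 had an unadjusted p under 0.05 and 1 passed with the replicate block. The block called 1866 of all 17000 genes at day 3. The part of any of these cell types in the Meis and Pbx values was not tested.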

How the data were processed

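Total RNA of 12 embryoid body samples was turned into stranded libraries with 8 cycles of PCR and sequenced, per the labels' protocols. The deposited values are a normalised signal: for each sample the authors scaled its read counts by a single size factor. Named in the submitters' processing notes, without roles, are mm10, HTSeq 0.6.0, TopHat2 2.0.10, DESeq 1.16.0 and CASAVA 1.8.2; whether counting used the strand is not given in the sources used here, so reads of antisense genes over Pknox1 and Meis1 may be included. Dividing each column by its smallest nonzero value gave whole reads for 100% of values (tolerance 0.01). Symbols, positions and exon lengths came from GENCODE M21 (mm10) for 18199 IDs; 70 had none.

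The members and lists were chosen with earlier results of these data known. R 4.3.3 with limma 3.58.1 (its trend option) fitted log2(value + 1) with 4 group means over 12 samples, 8 residual and 5 prior degrees of freedom, on the 17000 genes whose mean reached 10 in 1 or more groups, two-sided. Alternatives included edgeR 4.0.16 and DESeq2 1.42.0 on the whole reads, and the models were tested on simulated data. Named were all 8 genes, Kat2a, at most 3 called genes per list and comparison with the smallest p, the 3 genes most like each called member, and genes overlapping a member; some of these are not described. The nearest tested genes beside Meis1, Meis2, Meis3 and Pbx3, outside this rule, were named after their values were seen. Those beside the other members are not described.

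The replicate numbers were taken as pairs between genotypes, from the data and not the labels: deviations of same-numbered null and floxed samples correlated at r = 0.248 to 0.424 at day 5 and 0.270 to 0.372 at day 3, and at most 0.0268 otherwise. Between days the null line gave 0.123 to 0.282, and the floxed line 0.0814 to 0.214, where these values gave no ground to take the numbers as pairs. The replicate block was nevertheless fitted over all 4 groups at once. It therefore also tied same-numbered samples between days in both lines, and its p-values rest on that tie. Other genes of the Meis, Pbx and Pknox families were not analysed here. Precision is limited by 3 samples per group and, for Meis1 at day 3, by 11 to 289 reads per library.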

Additional observations from a re-analysis of the deposited data

Results flagged for a closer look

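Both of the following genes differed between days in their change of null over floxed samples, by the test of the genotype by day interaction, and neither is a Meis, Pbx or Pknox gene. Cyp26b1, which degrades retinoic acid, had an interaction of -2.30 ± 0.43 on the log2 scale (adjusted p = 0.0383), with null over floxed changes of -1.72 at day 5 and 0.57 at day 3. Sox2, a pluripotency and neural transcription factor gene, had -0.63 ± 0.11 (adjusted p = 0.0345), with -0.76 at day 5 and -0.13 at day 3. Both calls were absent without the 4 libraries numbered 3, and that of Cyp26b1 with edgeR. No group had enough samples for a search for single outlying libraries.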

How the results depend on the processing

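Of 467 values of the 8 genes under other scalings, filters, pseudocounts, tools and fits, 450 kept their direction and their side of the threshold; of 480 with 1 library left out, 441 did. The replicate block called 1866 genes at day 3 (against 1041) and 443 in the interaction (against 81), and DESeq2 1703 and 511; a pseudocount of 10 gave 126 in the interaction. Day 3 gave 388 genes with chromosome 11 left out (179 higher and 209 lower) and 474 with it centred (226 and 248), against 696 higher and 345 lower. Fitting only the groups compared gave 0 of the 8 genes at day 3 and 4 at day 5. Over all these settings, genes called numbered 388 to 1866 at day 3 and 3829 to 5638 at day 5. Directions turned for genes near 0: at day 5 Pbx4 (0.014) and Pknox1 (0.0087) with upper-quartile scaling, and in the interaction Pknox1 (0.032 with upper-quartile and 0.011 with TMM scaling) and Meis1 (0.13 with edgeR and 0.18 with DESeq2). The cause was not tested.

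With 1 library left out, genes called ranged from 426 to 1135 at day 3 and from 3 to 115 in the interaction, and members called from 0 to 1 at day 3. Log2 changes at day 3 ranged from -1.71 to 0.31 for Meis1, -0.12 to 0.071 for Pbx2, -0.20 to 0.023 for Pbx3, -0.078 to 0.21 for Pbx4 and -0.077 to 0.015 for Pknox1, at day 5 from -0.24 to 0.19 for Pbx4 and -0.13 to 0.10 for Pknox1, and in the floxed line with time from -0.11 to 0.10 for Pbx2 and -0.36 to 0.030 for Pbx4. In the interaction they ranged from -1.52 to 0.50 for Meis1, -0.30 to 0.14 for Pbx4, -0.10 to 0.13 for Pknox1 and -0.073 to 0.67 for Pknox2.

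Leaving out the 4 libraries numbered 3 was chosen after seeing the data. It called 383 genes at day 3, 2591 at day 5 and 35 in the interaction, and 1, 3 and 0 of the 8 genes. It turned Pbx2 (0.0028), Pbx3 (0.075) and Pbx4 (-0.011) at day 3, Pbx4 (0.013) and Pknox1 (0.093) at day 5, Pbx2 in the floxed line (0.0082), and Pbx4 (0.023), Pknox1 (0.14) and Pknox2 (-0.031) in the interaction. The replicate block changed the calls of Pbx2 at day 5 (adjusted p = 0.00971) and, in the null line with time, of Pbx2 (0.0107) and Pknox1 (0.0456), and no other call of the 8 genes. The few reads of Meis1 at day 3 limit its precision there.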
